A study of Mus musculus with 10 samples.

Results

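The tripartite motif (TRIM) proteins described here are Trim30a, Trim30d, Trim12c, Trim34a, Trim14, Trim21, Trim25, Trim26 and Trim56, 9 genes of antiviral defence out of 13382 genes that could be tested in neonatal mouse lung. Every probe set (a group of short probes on the array that together measure a transcript) whose platform annotation names any of the 9 was taken, 21 probe sets in all. The genes were chosen by name for their antiviral roles and with the smoke minus control log2 differences of these same arrays in view, so those differences are given as a description and without a test. Of the 21 probe sets 18 name a single gene, 1 names both Trim30a and Trim30d, and 2 name Trim34a together with Trim34b. The filter on dim probe sets was passed by 15, and each of the 9 genes kept at least 1 probe set of its own.

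Lungs came from 10 C57BL/6J mice aged 2 weeks, with 1 Affymetrix Mouse 430 2.0 array for each mouse. The smoke group of 6 mice breathed cigarette smoke beside the mother in an exposure chamber, beginning 1 day after birth, with daily sessions of 1 hour for 7 days and of 2 hours for the next 7 days at a mean of 90 mg of total particulate in each cubic metre of air. The control group of 4 mice was kept in filtered air apart from the exposed mice. The labels give the sex as unknown and name no genotype other than the strain, no litter and no array batch, so a p-value here reflects only how these arrays vary, and the number of arrays limits the precision. The comparison asks which lung transcripts differ after smoke exposure over the first 2 weeks of life.

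Most TRIM proteins carry a RING domain, which hands ubiquitin from a conjugating enzyme to a substrate, followed by B-box zinc fingers and a coiled coil, and many end in a PRY-SPRY domain that recognises the target. In antiviral defence some bind viral components directly, while others attach ubiquitin to sensors and adaptors and so strengthen or restrain the signal that leads to type I interferon. Interferon in turn induces many TRIM genes through the transcription complex ISGF3, which binds a DNA sequence called the interferon-stimulated response element.

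Promoter sequences are shown because interferon acts on many TRIM genes through this element. RefSeq promoter windows (GRCm38.p6, 250 bases before to 50 after the start) were matched for 8 of the 9 genes. Each was searched on both strands for the core of the response element, which is GAAA, any 2 bases and GAAA again, or TTTC, any 2 bases and TTTC when read from the opposite strand. The stretches that carry it are shown 5' to 3' on the strand of the gene, with all matched bases in capitals.
Trim30a: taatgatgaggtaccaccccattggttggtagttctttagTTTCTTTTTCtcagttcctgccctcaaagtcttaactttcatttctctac
Trim30d: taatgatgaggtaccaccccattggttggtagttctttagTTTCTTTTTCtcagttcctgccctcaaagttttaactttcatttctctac
Trim12c: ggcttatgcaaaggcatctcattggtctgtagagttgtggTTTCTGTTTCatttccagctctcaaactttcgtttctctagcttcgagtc
Trim34a: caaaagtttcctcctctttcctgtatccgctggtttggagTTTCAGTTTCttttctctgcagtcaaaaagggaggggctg
Trim21: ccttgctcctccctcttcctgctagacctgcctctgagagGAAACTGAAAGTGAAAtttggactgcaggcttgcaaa
Trim26: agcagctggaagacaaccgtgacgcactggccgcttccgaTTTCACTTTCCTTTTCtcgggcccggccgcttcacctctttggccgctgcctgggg
The stretches lie at chr7:104465180-104465269 (minus strand) for Trim30a, chr7:104507841-104507930 (minus) for Trim30d, chr7:104353329-104353418 (minus) for Trim12c, chr7:104244427-104244506 (plus) for Trim34a, chr7:102565433-102565509 (minus) for Trim21 and chr17:36836946-36837041 (plus) for Trim26.

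The core was found in 6 of the 8 promoters, against 3.99% of 27025 genes with a promoter window. Trim21 and Trim26 held 2 overlapping matches each, and the other 4 genes held 1 from the start shown. The first matched base lay at -36 from the start in Trim30a, at -41 in Trim30d and at -29 in Trim12c. Counted from a second annotated start of Trim30a, a match lay at 3. In Trim34a and Trim21 it lay after the start, at 11 and 14, and in Trim26 farther upstream, at -160. The promoters of Trim25 and Trim56 held no match in this window. For comparison, the 100 bases around their starts are shown, at chr11:88999343-88999442 (plus) and chr5:137116168-137116267 (minus), with no capitals because nothing matched.
Trim25: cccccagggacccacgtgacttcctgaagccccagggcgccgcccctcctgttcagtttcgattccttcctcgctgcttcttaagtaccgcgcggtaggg
Trim56: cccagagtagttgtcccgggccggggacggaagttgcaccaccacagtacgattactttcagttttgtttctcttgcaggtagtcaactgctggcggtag
The gamma-activated site TTCNNNGAA, to which STAT dimers bind, was in 0 of the 8 promoters and in 9.55% of all genes. A match describes letters in a window and does not show that a factor binds there.

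**Figure D1:**
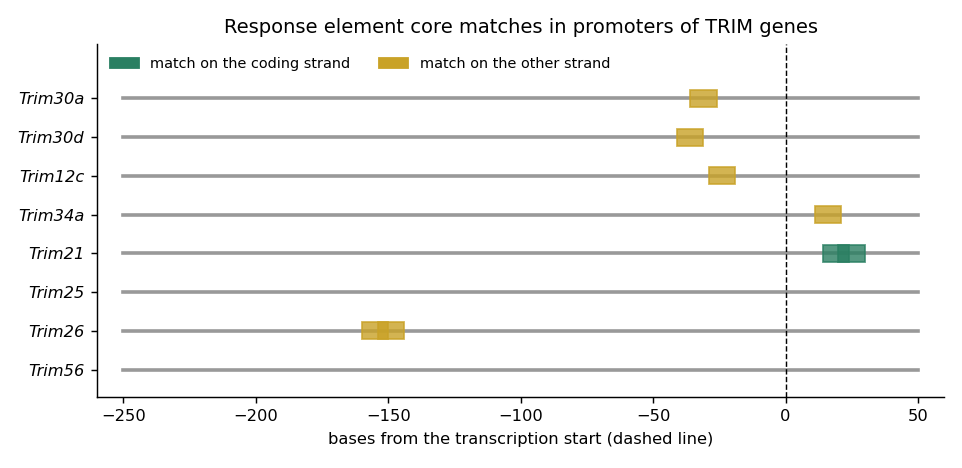
Positions of matches to the response element core on either strand in 8 TRIM promoters; the x axis gives bases from the transcription start, each grey line is 1 promoter window and each box is 1 match. Matches in Trim30a, Trim30d, Trim12c, Trim34a and Trim21 lie close to the start, that of Trim26 lies upstream from -160, and Trim25 and Trim56 have none.

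Of the 9 genes, 5 lie on chromosome 7, and 4 of these belong to a single run of neighbouring genes. From Trim34a to Trim30d the RefSeq annotation lists 10 protein-coding genes in the order Trim34a, Trim5, Trim12a, Trim34b, Trim12c, Gm38525, Trim30b, Trim30c, Trim30a and Trim30d. Trim21 lies on the same chromosome, with 99 protein-coding genes in between. The promoter windows of Trim30a and Trim30d were 90.8% identical over 305 aligned positions, and those of Trim12c and its neighbour Trim5 were 82.2% identical over 320. Probes for close relatives can bind transcripts of more than 1 gene. Probe sequences were not compared here, so how far the levels of neighbours in the cluster are separate measurements is uncertain.

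All 9 genes had a lower mean in smoke-exposed than in control lungs, by 6.13-fold for Trim30a to 1.12-fold for Trim56. In 6 of the 9 (Trim30a, Trim30d, Trim12c, Trim34a, Trim14 and Trim21) every smoke array lay below every control, as it did in 2.11% of all genes, while 1.97% lay wholly higher. The limma fit over all genes called 5 of the 9 lower, all of these but Trim14, and 0 higher, where 0.702% of all genes were called lower and 0.0224% higher. Of their 15 probe sets that passed the filter, 9 lay wholly below the controls (2.83% of all probe sets, with 1.54% wholly above) and 7 were called lower (0.54%, with 0.0111% called higher). Because this contrast was known when the genes were chosen, nothing is read from these counts. The median log2 difference of the 9 was -1.32, and that of all genes tested was 0.06. In bulk tissue, fewer cells of a type and less RNA per cell cannot be told apart.

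Cluster genes on chromosome 7 showed the widest gaps. Trim30a, which in mice restrains Toll-like receptor signalling by promoting loss of the adaptors TAB2 and TAB3, had log2 intensities of 12.48, 12.46, 12.23 and 12.24 on control arrays 1 to 4. On the 6 smoke arrays its lowest, median and highest values were 8.84, 9.80 and 10.21. The highest smoke array thus lay 2.02 below the lowest control, a gap wider than the whole spread of 1.37 within the smoke group. The log2 difference was -2.62 ± 0.24 (SE, 4 and 6 arrays), and in deposited intensity the gene went from 4634.4 to 5994.6 in controls to 405.0 to 1161.6 after smoke.

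Trim30d, the neighbour and close relative of Trim30a, had control values of 11.91, 12.17, 12.58 and 11.73. Its smoke values ran from 9.15 through a median of 9.61 to 9.72. The smoke arrays were more alike than the controls, with SDs of 0.22 (n = 6) and 0.37 (n = 4), and the log2 difference was -2.57 ± 0.20. The probe set that names both genes had a difference of -2.35 ± 0.33, and the second probe set of Trim30a one of -2.41 ± 0.24.

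Trim12c, a mouse relative of primate TRIM5, stood at 11.71, 12.05, 12.12 and 11.52 in controls. After smoke its lowest, median and highest values were 9.28, 9.88 and 10.27, all below every control. The log2 difference was -2.04 ± 0.22, or 4.12-fold.

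Trim34a, the first gene of the run, was the most even of the 4 after smoke, with an SD of 0.14 (n = 6). It stood at 12.54, 12.57, 12.57 and 12.26 in controls and at 10.80, 10.84 and 11.15 (lowest, median, highest) after smoke, with 1.11 between the groups. Its log2 difference was -1.58 ± 0.14. The probe set shared with Trim34b behaved otherwise. It stood at 9.47, 9.83, 9.52 and 8.87 in controls but ran from 5.74 to 9.01 after smoke, and the groups overlapped.

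Trim21 is a cytosolic antibody receptor, which binds antibody-coated viruses that enter the cell and marks them for the proteasome. Its brighter probe set read 11.44, 11.48, 11.35 and 11.45 in controls, the narrowest control spread of the 9, with an SD of 0.05 (n = 4). After smoke the lowest, median and highest values were 9.94, 10.19 and 10.41, and the log2 difference was -1.25 ± 0.15. The other Trim21 probe set overlapped between groups, at 8.92 to 9.22 in controls and 8.34 to 9.14 after smoke, with a difference of -0.29 ± 0.20. The 2 probe sets therefore disagree on the size of the Trim21 difference by more than their errors, and which of them follows the transcript better was not tested.

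**Figure D2:**
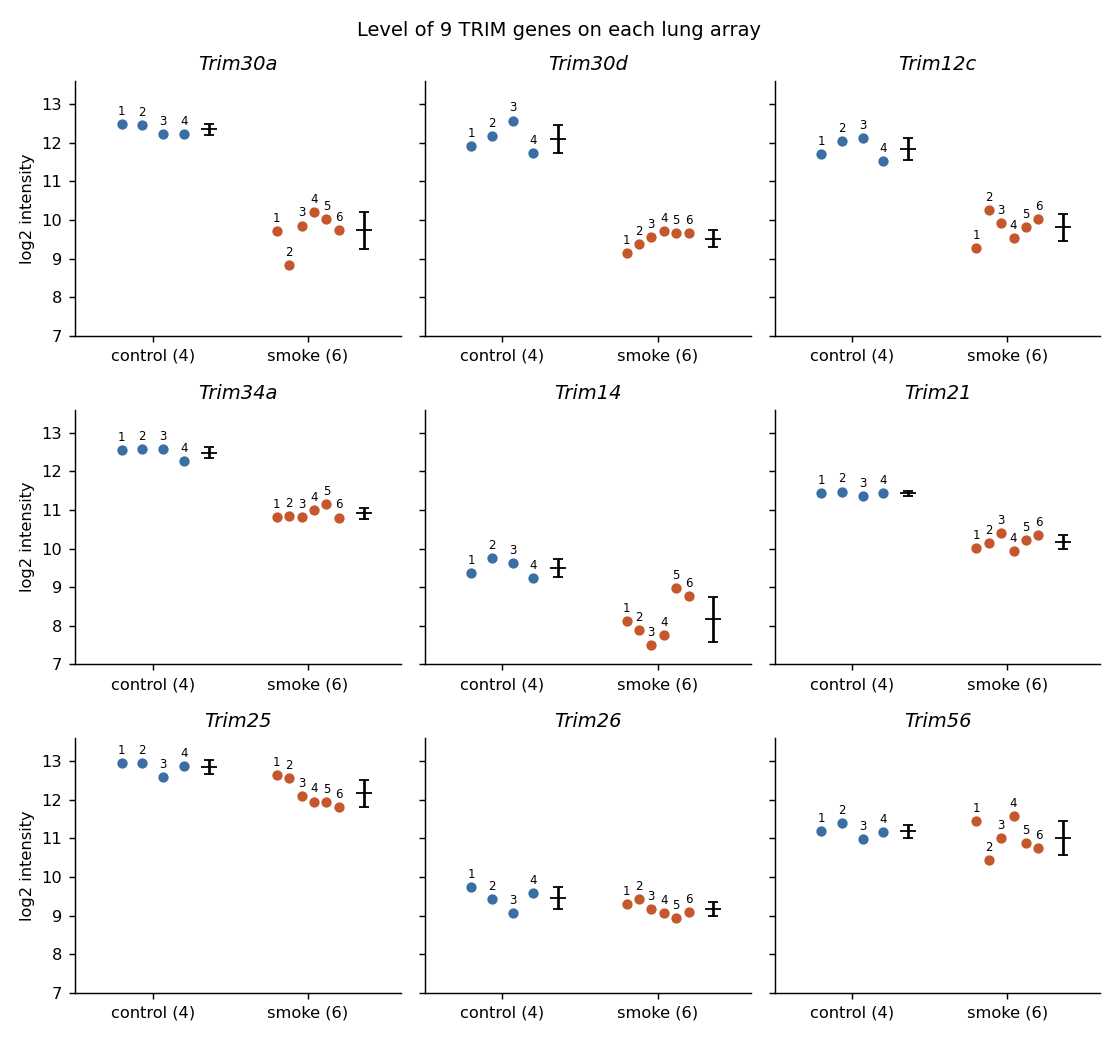
Log2 intensity (y axis) of 9 TRIM genes on every array; points carry the replicate number of the array, blue for the 4 control and orange for the 6 smoke lungs, and black bars show the mean ± SD. Smoke arrays of Trim30a, Trim30d, Trim12c, Trim34a, Trim14 and Trim21 sit wholly below the controls, while those of Trim25, Trim26 and Trim56 overlap them.

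Trim14 and Trim25 act on RIG-I-like receptor signalling. Trim14, which lacks a RING domain and serves as an adaptor beside the mitochondrial protein MAVS, had control values of 9.36, 9.75, 9.62 and 9.23. After smoke its lowest, median and highest values were 7.51, 8.01 and 8.98. The groups did not overlap, but the highest smoke array came within 0.25 of the lowest control, and the log2 difference was -1.32 ± 0.30. Smoke arrays 5 and 6 were the highest, at 8.98 and 8.76.

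Trim25, which attaches ubiquitin chains to RIG-I and is also a ligase for the ubiquitin-like protein ISG15, was measured by 3 probe sets. The brightest read 12.96, 12.96, 12.59 and 12.88 in controls and 11.82, 12.02 and 12.63 (lowest, median, highest) after smoke. The groups overlapped, with 5 of 6 smoke arrays below every control, and the log2 difference was -0.68 ± 0.18. The further probe sets were at -0.74 ± 0.23, overlapping, and -0.90 ± 0.32, where the groups were 0.01 apart.

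Trim26 and Trim56 differed least. Trim26 is reported to act on the transcription factor IRF3 and on the kinase complex upstream of it, and stood at 9.73, 9.44, 9.06 and 9.57 in controls. After smoke it ran from 8.93 through a median of 9.14 to 9.43, with a log2 difference of -0.29 ± 0.19. Only 1 of 6 smoke arrays lay below every control. Trim56, which promotes signalling through the DNA-sensing adaptor STING and through the Toll-like receptor adaptor TRIF, read 11.19, 11.40, 10.98 and 11.16 in controls. Its smoke arrays reached both sides of the controls, from 10.43 through 10.94 to 11.58, and the log2 difference was -0.17 ± 0.23.

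Ordered by the size of the difference, from Trim30a to Trim56, neighbours lay closer together than the larger of their SEs for Trim30a and Trim30d, Trim34a and Trim14, Trim14 and Trim21, and Trim26 and Trim56. Promoter matches did not follow this order throughout, since Trim26 held matches and had the second smallest difference. The 6 probe sets under the filter were dim. For example, the second probe set of Trim12c ran from 13.0 to 73.8 in deposited intensity in controls and from 52.8 to 136.9 after smoke, and that of Trim26 from 25.2 to 90.3 and from 64.3 to 282.5. Both had a higher mean after smoke, opposite to the brighter probe set of the same gene. The remaining 4 dim probe sets, of Trim30d, Trim34a, Trim14 and the pair Trim34a and Trim34b, had means that were lower after smoke by 0.02 to 1.03, and overlapped between groups.

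**Figure D3:**
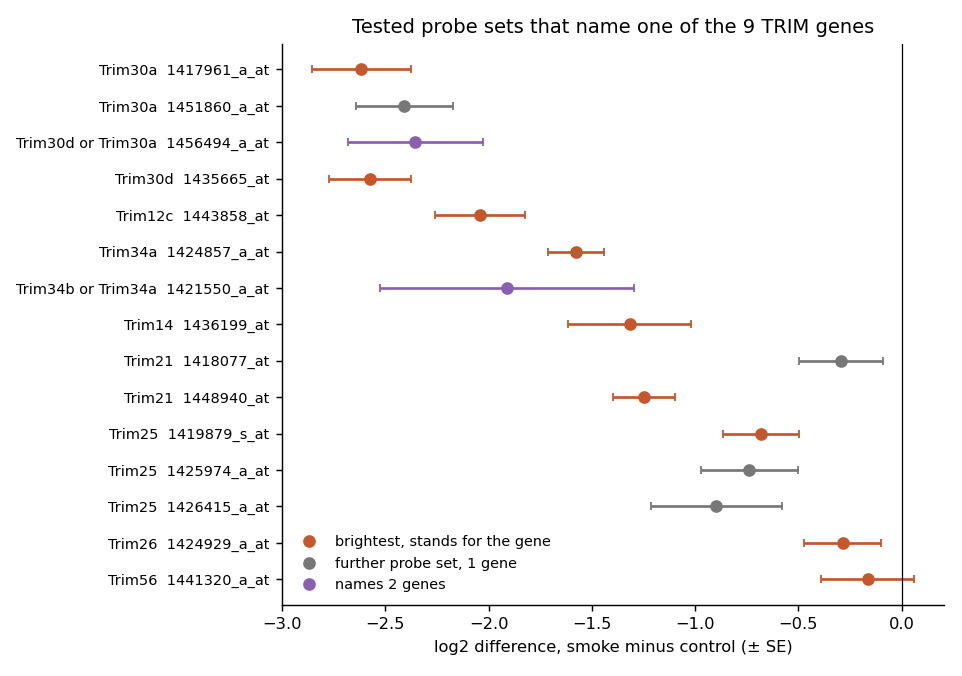
Log2 difference, smoke minus control, with its SE (x axis) for the 15 probe sets that name a TRIM gene described here and passed the filter; orange marks the brightest probe set of each gene, grey further probe sets and purple those that name 2 genes. All 15 lie below 0, with agreement among the Trim30a and Trim30d probe sets and a wide gap between those of Trim21.

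Smoke arrays stood apart from each other in the ratio of the 3' to the 5' actin probe set, a measure of how complete the labelled RNA is. The ratio was 31.6 and 29.4 on smoke arrays 1 and 2, 9.26 and 10.3 on smoke arrays 3 and 4, 2.18 and 2.98 on smoke arrays 5 and 6, and 3.96 to 10.4 in controls. The same ratio for Gapdh did not set smoke array 1 apart. It was 4.76, 9.16, 5.94, 3.68, 1.40 and 2.14 on smoke arrays 1 to 6, and 4.82 to 5.89 in controls. Within the smoke group, the probe set of Trim34a and Trim34b followed the actin ratio in reverse. That probe set read 5.74 and 6.04 on arrays 1 and 2, and 8.89 and 9.01 on arrays 5 and 6. Its log2 difference of -1.91 ± 0.61 was -1.10 ± 0.35 without smoke arrays 1 and 2. The brightest Trim25 probe set had the opposite order, with arrays 1 and 2 highest at 12.63 and 12.56, and its difference was -0.90 without them, with the groups apart. A further Trim25 probe set did not share that order. It was highest on smoke arrays 5 and 6, at 11.15 and 10.82, and read 10.40 and 10.56 on arrays 1 and 2. The second Trim30a probe set also followed the actin ratio in reverse, from 8.85 and 8.89 on arrays 1 and 2 to 9.82 and 9.81 on arrays 5 and 6. So did that of Trim30a and Trim30d, from 7.00 and 6.66 to 8.36 and 8.20. Without arrays 1 and 2 their differences were -2.14 and -2.03. The brightest probe sets of Trim30a and Trim12c were instead highest on arrays 4 and 2, at 10.21 and 10.27. Leaving out smoke arrays 1 and 2, 7 of the 9 genes did not overlap between groups, and leaving out arrays 5 and 6 it was 6. Groups of fewer arrays separate more easily, and the share of all genes was not counted for these smaller sets. Nothing is therefore read from these 2 counts. Trim30a, Trim30d, Trim12c, Trim34a and Trim21 had differences of -2.39, -2.45, -2.02, -1.54 and -1.20 without smoke arrays 1 and 2. The part of the actin ratio in the values that moved with it was not tested.

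**Figure D4:**
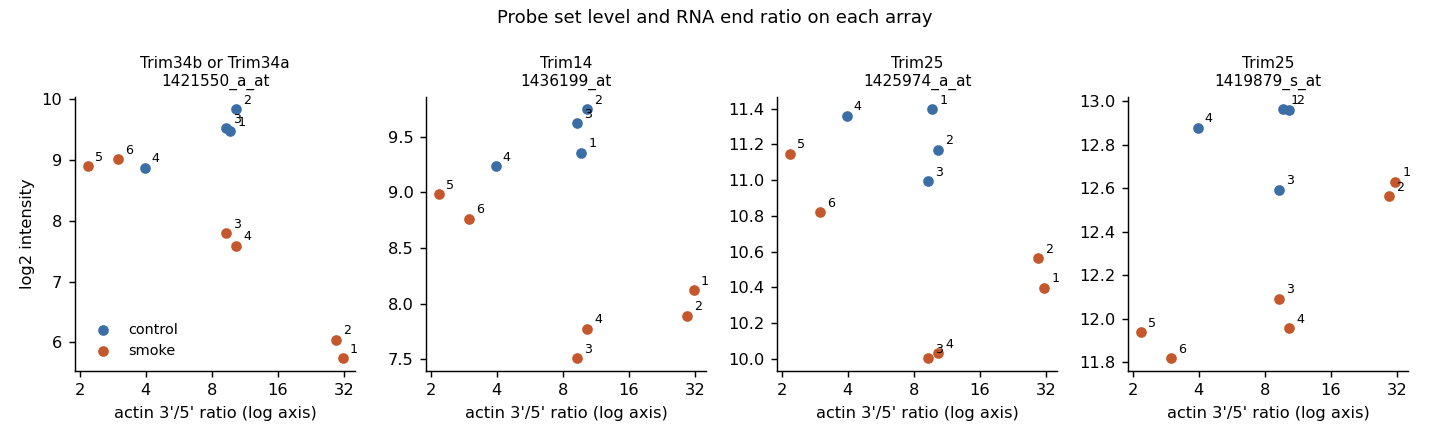
Log2 intensity (y axis) of 4 probe sets against the 3' to 5' actin ratio of the same array (x axis, log scale); blue points are control and orange points smoke arrays, with replicate numbers. Within the smoke group the probe set of Trim34a and Trim34b is highest on arrays 5 and 6 and lowest on arrays 1 and 2. The brightest Trim25 probe set is highest on arrays 1 and 2, and the further Trim25 probe set is highest on arrays 5 and 6.

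Genes with the most similar profile over the 10 arrays were sought by the root-mean-square difference of log2 values after each gene was centred on its own mean, so a small value means that 2 genes moved alike on the array scale. Trim21 had the closest partner, Uba7, which activates ISG15 for conjugation, at 0.10, where the median over all genes was 0.77. Trim34a was closest to the transcription factor Irf7 and to Samd9l, at 0.20 and 0.22. Trim30a was closest to Rnf213 and Parp9, at 0.27 and 0.33, and Trim30d to Nlrc5 and Rnf213, at 0.26 and 0.29. Trim12c was closest to Ifit2 and Parp12, at 0.32 for both, and Trim14 to Ms4a4d and Mitd1, at 0.22 and 0.25. Neighbours of Trim25 (Prss23 and Zkscan14), Trim26 (Nfu1 and Ubox5) and Trim56 (Spice1 and Sp7) lay at 0.12 to 0.18. Among the 9 genes themselves the closest pairs were Trim25 with Trim26 and Trim34a with Trim21, both at 0.26, and the farthest was Trim30d with Trim56, at 1.26. The difference between the 2 groups enters every one of these values.

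The other TRIM genes, listed by gene name, were tested in the same fit. They are the family without the genes described above, which were chosen with this contrast in view. The counts below therefore describe a remainder and not the whole family. Of 38 other TRIM genes, 3 fell, 1 rose and 34 did not pass (limma, adjusted p under 0.05), where 0.702% of all genes fell and 0.0224% rose. The median log2 difference of the 38 was 0.10, and that of all genes was 0.06. Every gene set aside had a lower mean after smoke, so the median of the 38 depends in part on that removal. Of the 3 that fell, Trim12a and Trim5 belong to the run on chromosome 7, and both hold the response element core in their promoter. The core was found in 3 of 43 other TRIM genes with a promoter window, the third being Trim2, at -0.91 ± 0.44 (adjusted p = 0.519).

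Trim12a stood at 11.18, 11.32, 11.04 and 10.55 in controls and at 9.07 to 9.71 after smoke. It fell by 1.62 ± 0.21 on the log2 scale (limma, adjusted p = 0.00255) and all 6 smoke arrays lay below the controls. Trim5 fell by 1.40 ± 0.27 (limma, adjusted p = 0.0472), from 9.56 to 10.59 in controls to 7.95 to 9.13, a call that was lost in 8 of the 10 single omissions of an array, with adjusted p-values up to 0.234. Pml, the organiser of nuclear bodies and itself a TRIM protein under another name, fell by 1.74 ± 0.25 (limma, adjusted p = 0.00645). Its levels went from 10.51 to 10.81 in controls to 8.12 to 9.32, while its dimmer probe sets gave -0.82 and -0.85 and did not pass. A dim probe set shared by Trim30b and Gm38525 was below the filter and was lower on all 6 smoke arrays, with means of 6.15 ± 0.40 (SD, n = 4) and 4.24 ± 0.49 (SD, n = 6).

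Mid1, a microtubule-associated TRIM ligase also known as TRIM18, was the TRIM gene that rose, by 3.46 ± 0.46 on the log2 scale (limma, adjusted p = 0.00320). It read 7.36, 7.29, 7.29 and 7.75 in controls and 9.36 to 12.51 after smoke. Only 1 probe set of Mid1 passed the filter. The 2 others were dim, at 0.13 ± 0.61 and 1.11 ± 0.67, and overlapped between groups. Mid2, a close relative of Mid1, was at 0.38 ± 0.30 (limma, adjusted p = 0.691). The values of other TRIM genes with roles in signalling were -0.38 ± 0.24 for Trim6, -0.39 ± 0.35 for Trim8, 0.62 ± 0.37 for Trim27, -0.13 ± 0.24 for Trim28 and 0.22 ± 0.29 for Trim65, with adjusted p-values of 0.588 to 0.874. Further probe sets of Trim27 and Trim28 reached 1.66 and 0.78, also without passing. Trim27 was highest on smoke arrays 1 and 2, at 13.08 and 12.81, and its difference was 0.22 without them. When only arrays numbered 1 to 4 in each group were used, that is, without smoke arrays 5 and 6, 4 TRIM genes rose instead of 1, Trim27 among them (1.11, limma, adjusted p = 0.0186).

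**Figure D5:**
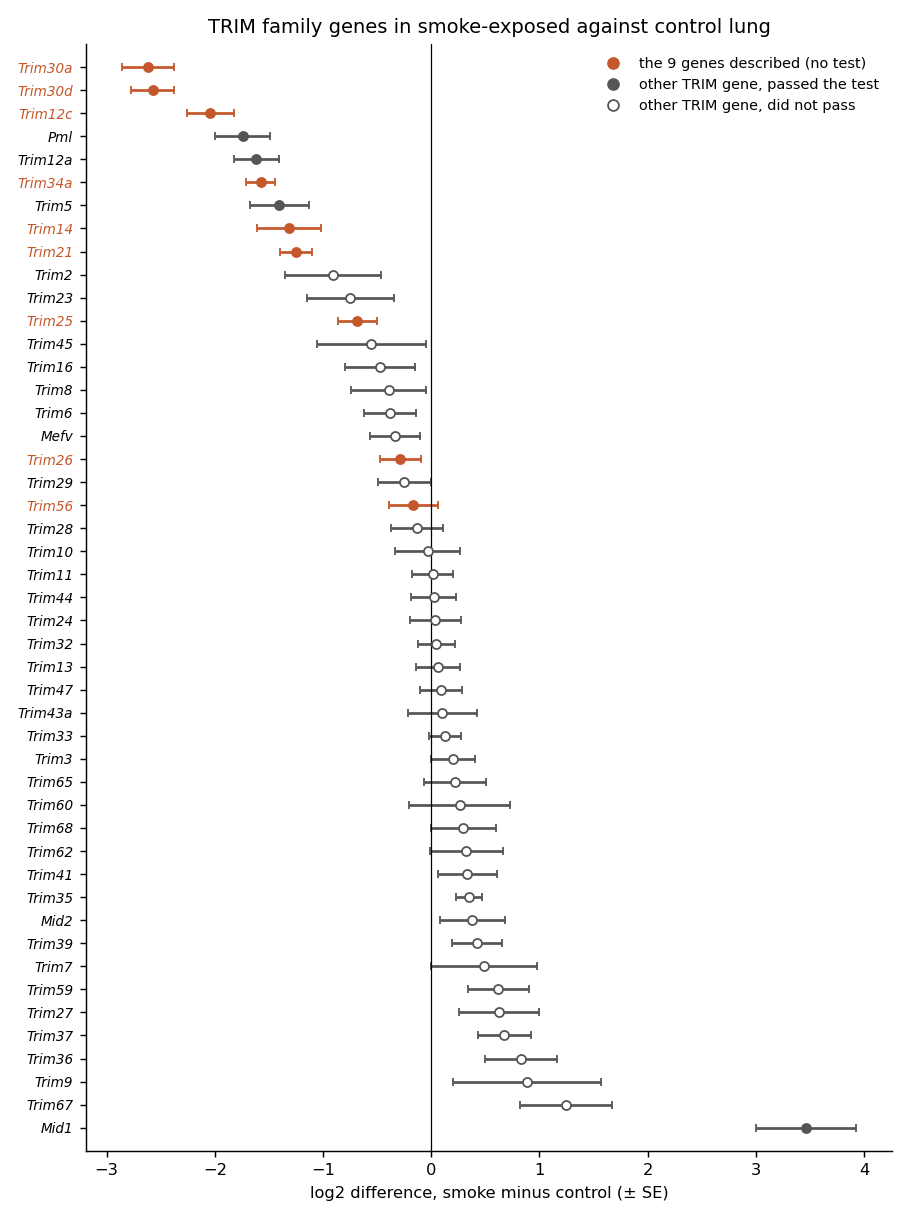
Log2 difference, smoke minus control, with its SE (x axis) for 47 TRIM family genes ordered by size; orange marks the 9 genes described without a test, filled grey the 4 other genes that passed and open circles those that did not. Trim30a, Trim30d and Trim12c lie at the low end and Mid1 at the high end.

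Genes on which the TRIM proteins act, or with which they act, were examined as a list of partners. The list also held Fcgr1, an antibody receptor as Trim21 is, for which no such link is given here. Of 25 listed partners tested, 5 fell and 20 did not pass, and none rose, where 0.702% of all genes fell and 0.0224% rose. The list was chosen with earlier results of these data known, so its counts are a description and not a test of the list. At an unadjusted p under 0.05 (limma), 5 partners were lower and 1 higher, where 598 and 769 of all 13382 genes were. The median log2 difference of the partners was -0.11. Ifih1, the double-stranded RNA sensor MDA5, fell by 2.13 ± 0.21 (limma, adjusted p = 0.000295). Ddx58, the RNA sensor RIG-I that Trim25 modifies, fell by 1.18 ± 0.17 (adjusted p = 0.00640), and of its 2 further probe sets 1 also fell (-1.44 ± 0.24, adjusted p = 0.0169). Zc3hav1, the antiviral protein ZAP for which Trim25 is a cofactor, fell by 1.09 ± 0.16 (adjusted p = 0.00731). Irf7, a transcription factor that drives interferon genes, fell by 1.57 ± 0.22 (adjusted p = 0.00523), and Fcgr1, an antibody receptor of the cell surface, by 1.22 ± 0.21 (adjusted p = 0.0215).

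For each of these 5 genes all 6 smoke arrays lay below the lowest control. Control replicates 1 and 2 mattered for the count, which was 3 without either, since Zc3hav1 and Fcgr1 then missed the threshold (adjusted p of 0.0509 to 0.0992). Their other tested probe sets had smaller differences, at -0.39 for Zc3hav1 and -0.70 for Fcgr1. With median centring the count was also 3, with Ddx58 at an adjusted p of 0.0857 and Zc3hav1 at 0.0505. The partners that did not pass ranged from -0.39 for Vcp to 0.86 for Map3k7, with adjusted p-values from 0.220 upwards.

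Of 10 genes that relay the interferon signal, 1 fell and 9 did not pass, and none rose (3 were lower and 0 higher at an unadjusted p under 0.05). Over all genes 0.702% fell and 0.0224% rose. This list, too, was chosen with earlier results known, and its counts are a description. The median log2 difference of the relay genes was -0.08. Irf9, the DNA-binding subunit of ISGF3, fell by 1.46 ± 0.20 (limma, adjusted p = 0.00381), from 10.89 to 11.30 in controls to 9.25 to 9.98. Stat2, another ISGF3 subunit, was at -3.37 ± 0.73 and did not pass (adjusted p = 0.0849), with smoke values from 7.61 down to the floor at 3.98. It passed with a floor at the 25th percentile (-2.74, adjusted p = 0.00770) and with array weights (-2.85, adjusted p = 0.0342). The same probe set also passed without smoke replicate 5 (-3.72, limma, adjusted p = 0.0365) and on arrays numbered 1 to 4 (-4.16, adjusted p = 0.00593). On those arrays the other Stat2 probe set was the brighter and stood for the gene, so the relay count stayed at 1. That other probe set was at -0.34 ± 0.29 over all arrays. Irf1 was at -0.37 ± 0.16 (adjusted p = 0.474). Jak1 was at -0.19 ± 0.26 (adjusted p = 0.822), and its dimmer probe sets, 4.01-fold and 1.91-fold lower, did not pass.

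Markers of the tissue and of blood cells were read beside these values, from lists also chosen with earlier results known. Of all 13382 genes, 0.702% fell and 0.0224% rose, and 598 were lower and 769 higher at an unadjusted p under 0.05 (limma). Of 12 lung epithelial and endothelial markers 0 passed (limma, 0 also at an unadjusted p under 0.05), with differences from -0.44 for Pecam1 to 0.25 for Foxf1. The lowest log2 intensities of Sftpc, Scgb1a1 and Cdh5 on any array were 14.28, 14.38 and 12.50. Others were less steady on smoke arrays, such as Pecam1 at 7.11 to 10.20 and Sftpa1 at 12.38 to 14.43. Of 10 neutrophil markers 4 fell and none rose, and the summed intensity of the 10 was 28500 to 40100 in controls and 9290 to 19300 after smoke, with Lcn2 the single marker that reached the floor on an array. This sum mainly follows S100a8 and S100a9, which were among the 4 and had control means of 14.12 and 13.53. The 6 markers that did not pass ran from -0.84 for Camp to 0.001 for Ngp. Macrophage and monocyte markers had 0 of 11 past the threshold (2 lower unadjusted), with sums of 42400 to 57500 and 32900 to 47900 and Marco reaching the floor. B cell markers had 0 of 9 (7 higher unadjusted), with sums of 2030 to 2700 and 2850 to 3370, and T and natural killer cell markers 0 of 5 (0 unadjusted), with sums of 799 to 2380 and 600 to 1380 and Cd3d reaching the floor. Of 6 plasmacytoid dendritic cell markers 1 fell, Bst2, which interferon induces in many cell types, with sums of 14900 to 17800 and 8860 to 12900. Those sums mainly follow Bst2 and Tcf4, the brightest of the list, at control means of 12.44 and 13.31. The 5 markers that did not pass ran from -0.20 for Tcf4 to 1.18 for Pacsin1, and the median of the list was 0.38. The part of these cell types in the lower TRIM levels was not tested.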

How the data were processed

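Lung RNA was isolated with Trizol and turned into labelled cRNA, per the labels' protocols. For each array the authors deposited a linear intensity of every probe set, 45101 in all. Which program summarised the probes is not given in the sources used here, and no detection calls were used. A single 0 was raised to the lowest value above 0. Log2 intensities were quantile normalized between arrays and floored at their 10th percentile (an intensity of 15.8). Without the 64 Affymetrix control probe sets, the brightest 60% by mean, 27022, were tested with limma 3.58.1 in R 4.3.3 (lmFit, eBayes with trend), smoke against control, two-sided, with Benjamini-Hochberg adjustment over all tested probe sets and a threshold of 0.05. A gene was represented by its brightest tested probe set with 1 symbol. Symbols came from the platform annotation, in which gene IDs changed 0. Tested on simulated data for this comparison over 27022 probe sets, the fit recovered 74% of 50 probe sets shifted down by 2 on the log2 scale and 20% of 50 shifted down by 1. Alternatives were other scalings, filters, floors and variance models, array weights, single omissions, and a replicate block.

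The 9 genes and all lists were chosen with earlier results of these data known. Named genes were the 9, genes of each list that passed or, where fewer than 4 did, the next by p, a set of further TRIM genes, and the 2 nearest profiles of each of the 9. Trim2, Vcp, Map3k7 and the markers were named after their values were seen. Genes not matched to a probe set of their own were not analysed here. Coordinates are those of the RefSeq promoter table (GRCm38.p6), and identities are from global alignment in Biopython 1.88. Plots used matplotlib 3.10.9.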

Additional observations from a re-analysis of the deposited data

Results flagged for a closer look

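In 68 groups of arrays (15 probe sets of the 9 TRIM genes and the named genes, controls and smoke apart), 3 held an array whose gap to its nearest neighbour exceeded Dixon's 95% limit, and chance gives about 5%. Trim30a was low on smoke array 2, at 8.84 where the other smoke arrays read 9.72 to 10.21. Trim34a was low on control array 4, at 12.26 where the other controls read 12.54 to 12.57. Mid1 was high on control array 4, at 7.75 where the other controls read 7.29 to 7.36.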

How the results depend on the processing

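The median log2 difference of the 9 TRIM genes ran from -1.61 to -1.16 over 19 alternative settings. In all 20 settings 5 or 6 of them were called lower, where 58 to 339 of all genes were, and nothing is read from these counts. The brightest Trim25 probe set was absent from the setting that drops probe sets with the suffix _x_at or _s_at. The number of other TRIM genes that fell was 2 or 3 in all 20 settings, and the number that rose was 4 on arrays numbered 1 to 4, with or without the replicate block, and 1 in the other settings. Same-numbered arrays showed little shared deviation (correlations of -0.07 to 0.17). The labels give no pairing and such correlations cannot exclude it, so whether the numbers pair the samples is unknown. With the replicate block 339 genes of all fell and 449 rose, against 325 and 422 without the block on the same arrays. Partners that fell numbered 3 with median centring and 3 to 5 over single omissions. Relay genes that fell numbered 2 with a floor at the 25th percentile and with array weights, where Stat2 passed. Over all genes, 94 fell and 3 rose (598 and 769 at an unadjusted p under 0.05), with 58 to 97 and 1 to 6 over single omissions, fewest lower without control replicates 2 and 3 (58 and 60). With array weights 142 fell and 41 rose. Those that rose numbered 8 as deposited, 5 with median centring or the higher floor, 10 when smoke arrays 1 and 2 were left out and 7 with no filter. Trim5 also missed the threshold with median centring, with no filter and with no variance trend (adjusted p of 0.0591 to 0.0872), and Fcgr1 with values as deposited (adjusted p = 0.0810) and in 5 single omissions (up to 0.136). The cause of these shifts was not tested. With no detection calls, the error of dim probe sets is unknown.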
